A study of Mus musculus with 2 samples.

Results

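Chemokine receptors are G protein-coupled receptors through which leukocytes sense gradients of chemokines and move along them. Those described here were 8 receptor genes, listed by name (Ccr1, Ccr2, Ccr3, Ccr7, Ccrl2, Cx3cr1, Cxcr2 and Cxcr4), out of 20330 genes in the deposited table. They were read in adipose tissue macrophages (ATM), the macrophages of fat, sorted from the visceral fat of C57BL/6 mice after 12 weeks of high-fat diet, with antibodies against the surface antigens encoded by Adgre1 and by Itgam (CD11b). By their labelled genotype, all mice lacked ApoE and carried floxed Hif-1α alleles. The KO library came from mice with hMRP8cre (hMRP8cre+;Hif-1αfl/fl;ApoE-/-), in which a human MRP8 promoter drives Cre in myeloid cells, and the WT library from mice without it (hMRP8cre-;Hif-1αfl/fl;ApoE-/-). There was 1 library for each genotype, so differences between the genotypes cannot be checked against replicates and are given without p-values. Per the study's methods, the diet was begun in young mice, soon after weaning age. Whether animals were pooled is not stated in the labels.

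In adipose tissue, CCR2 and its ligand CCL2 are known for bringing monocytes into the fat of obese animals. CX3CR1 marks monocytes and many tissue macrophages, CXCR2 is the main chemokine receptor of neutrophils, CCR3 that of eosinophils, and CCR7 guides dendritic cells to lymph nodes. CXCR4 holds leukocytes near sources of CXCL12, and its gene is a known target of HIF-1. CCRL2 is an atypical receptor that binds chemerin and presents it to other cells without the usual G protein signal.

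Levels are given as FPKM, fragments divided by transcript length in kilobases and by sequencing depth, so that genes can be compared per length. Taking the smallest recurring step of FPKM times length as 1 fragment, the depth was estimated at 5869559 fragments in WT and 7466183 in KO. The 95% intervals below are exact Poisson intervals for a level, and exact Clopper-Pearson intervals for a ratio, on fragment numbers estimated in this way. They cover counting error only and are narrower than the scatter between the libraries. Hif1a, the deleted gene, was at 30.4 FPKM in WT versus 21.0 in KO. This value covers the whole gene and does not check the deletion. The sorted cell type was checked against 13 macrophage markers. All 12 that were found were above 1 FPKM in both libraries, among them the sort markers Adgre1 (299 FPKM in WT, 239 in KO) and Itgam (128 in both).

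Cxcr4 and Ccrl2 made up most of the receptor message in both libraries. The 8 receptors summed to 676 FPKM in WT versus 621 in KO, and Cxcr4 and Ccrl2 together were 90.9% of this sum in WT and 88.4% in KO. The other 6 receptors summed to 61.2 FPKM in WT versus 72.2 in KO. Within this small remainder the order of the receptors differed between the libraries. Ccr2 stood above Ccr1 by 2.2-fold in WT, and Ccr1 stood above Ccr2 by 4.51-fold in KO. In bulk RNA such as this, fewer cells of a type and less RNA per cell cannot be told apart.

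In WT the order of the levels was Cxcr4, Ccrl2, Ccr2, Ccr1, Cx3cr1, Cxcr2 and Ccr7, with Ccr3 listed at 0. In KO it was Cxcr4, Ccrl2, Ccr1, Ccr2, Cxcr2, Ccr3 and Cx3cr1, with Ccr7 listed at 0. The counting intervals of Ccr1 and Cx3cr1 overlapped in WT, as did those of Ccr7 and Ccr3, and so did those of Ccr2 and Cxcr2, and of Cxcr2 and Ccr3, in KO. The other neighbours in either order did not overlap. The intervals of Ccr3 in WT and of Ccr7 in KO take a listed 0 as a count of 0, which it need not be. The comparisons with them are therefore not firm.

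**Figure D1:**
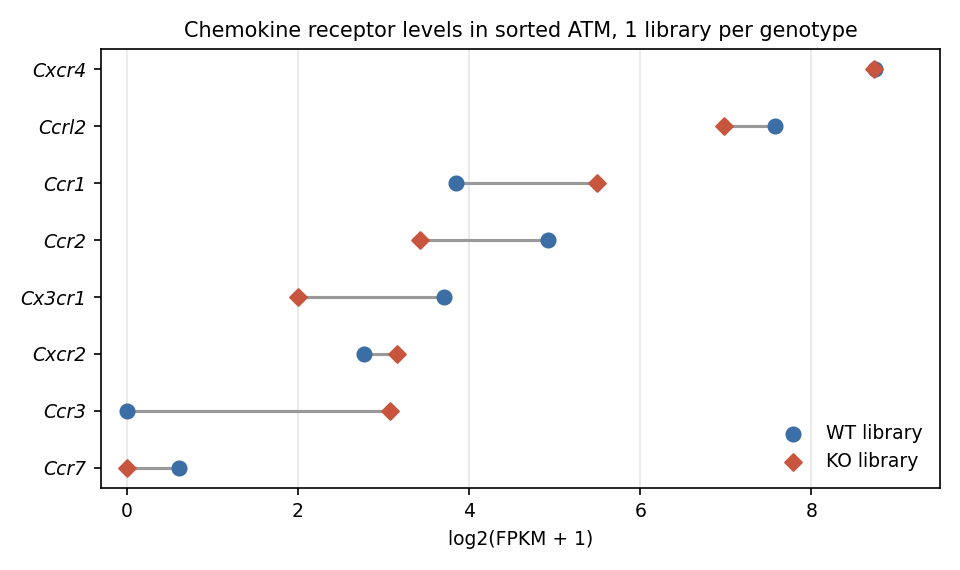
Level of each chemokine receptor in the WT library (blue circles) and the KO library (red diamonds), as log2(FPKM + 1); a line joins both values of a gene, there is 1 library per genotype and no error bar. Cxcr4 is at 426 FPKM in WT versus 424 in KO, Ccr1 and Ccr3 are to the right in KO, and Ccr2 and Cx3cr1 are to the left.

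The question asked of these libraries was how ATM with deleted Hif-1α differ from WT ATM. A change is the difference of log2(FPKM + 1), KO minus WT. A gene was compared where it reached 1 FPKM in at least 1 library, and called where the change passed 3-fold on this scale. Of the 8 receptors 7 were compared, and Ccr7 did not reach 1 FPKM. Ccr1 and Ccr3 were higher in KO past 3-fold and Cx3cr1 was lower, which was 3 of 7 receptors (42.9%), where 27.3% of the 10297 genes compared were called in either direction. By direction, 13.6% of all genes were called higher in KO and 13.7% lower. The receptors had no common direction, with 3 changes above 0 and 4 below. Their median was -0.01, that of Cxcr4, beside 0.03 over all genes compared.

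How often genes were called depended on their level, so each receptor is set beside genes of similar mean FPKM. The share called in either direction was 54.1% at a mean of 1 to 5 FPKM, 32.4% at 5 to 10, 20.6% at 10 to 20, 11.7% at 20 to 50 and 1.99% at 100 to 1000. Ccr3 lay in the lowest of these ranges, Cx3cr1 and Cxcr2 in the next, Ccr2 at 10 to 20, Ccr1 at 20 to 50, and Ccrl2 and Cxcr4 in the highest.

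**Figure D2:**
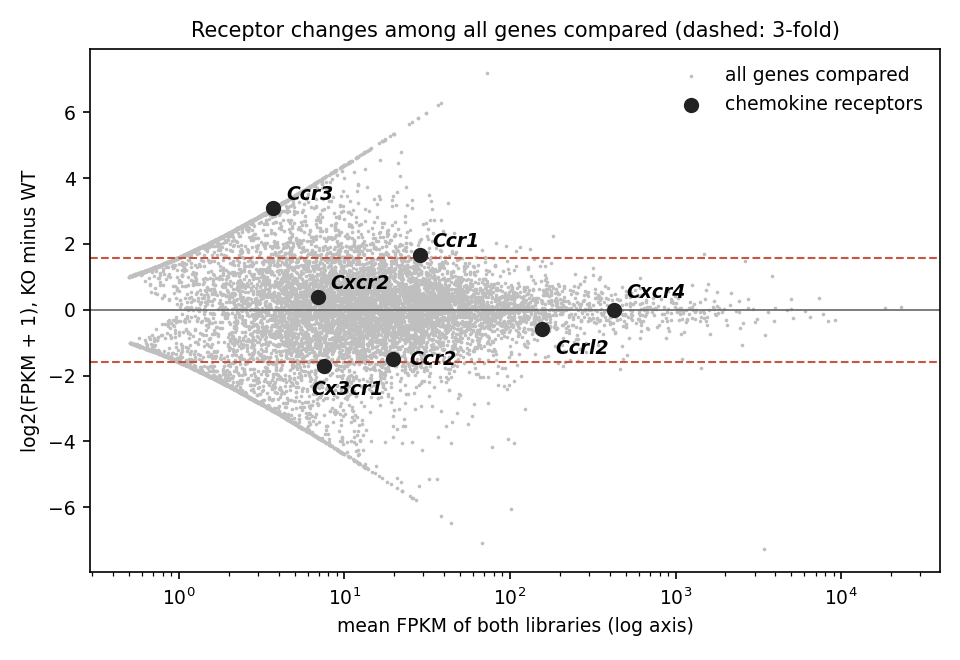
Change of each gene compared, as log2(FPKM + 1) in KO minus WT, against its mean FPKM in both libraries on a log axis, for all 10297 genes compared (grey) and the 7 chemokine receptors compared (black); dashed lines mark 3-fold. Ccr3 lies on the upper edge, which is formed by genes listed at 0 in WT, and Ccr2 lies just inside the lower dashed line.

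Among the receptors of inflammatory CC chemokines, Ccr1 was higher in KO past 3-fold, and Ccr2 had a lower value within 3-fold. Ccr1 (ENSMUSG00000025804, GRCm38 chromosome 9, 123962124 to 123968692, minus strand), a receptor for CCL3 and CCL5 on monocytes, macrophages and neutrophils, was at 13.4 FPKM in WT versus 44.1 in KO. The counting intervals were 11.7 to 15.2 FPKM in WT and 41.3 to 47.0 FPKM in KO. The KO value was thus 3.3 times the WT value (95% interval 2.85 to 3.84, on an estimated 222 and 932 fragments), and the change was 1.65. Of the other genes at a mean of 20 to 50 FPKM, 10.6% had a change as large in either direction. Ccr1 was the 4127th gene by level in WT and the 1608th in KO.

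Ccr2 (ENSMUSG00000049103, chromosome 9, 124101950 to 124113557, plus strand), the CCL2 receptor, was at 29.4 FPKM in WT versus 9.78 in KO. The counting intervals were 27.0 to 31.9 FPKM in WT and 8.58 to 11.1 FPKM in KO. The WT value was 3.01 times the KO value (95% interval 2.58 to 3.51, on an estimated 562 and 238 fragments). The change was -1.50, or 2.82-fold, and was not called. With a pseudocount of 0.01 FPKM, or on the plain FPKM ratio, it was past 3-fold. Of the other genes at a mean of 10 to 20 FPKM, 22.2% had a change as large.

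Ccr3 (ENSMUSG00000035448, chromosome 9, 124021972 to 124031689, plus strand), the receptor for the eotaxins CCL11 and CCL24, was listed at 0 in WT but found at 7.45 FPKM in KO, with a counting interval of 6.41 to 8.61 FPKM and an estimated 182 fragments. No fold is given, because 0 in this table need not be a count of 0: Srp19 and Mrps18c, genes that every cell uses, were at 51.5 and 135 FPKM in WT and listed at 0 in KO, and Polr2i was listed at 0 in WT but found at 23.8 FPKM in KO. Of the 1724 genes at 5 to 10 FPKM in KO, 203 (11.8%) were also listed at 0 in WT. The change of 3.08 depended on the pseudocount, and became 6.24 where 0.1 FPKM was added in place of 1.

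Ccr1, Ccr3 and Ccr2 lie in this order within 151 kb of chromosome 9. Their changes did not share a direction, with the first and the second higher in KO and the last lower. Of the 8 receptors 5 are on this chromosome, Cx3cr1 and Ccrl2 outside the cluster. Of the 50-mers in the annotated Ccr2 transcripts 1.91% also occur in transcripts of another gene, and for Ccr1 and Ccr3 this share was 0%. The authors' read length is not given in the sources used here.

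Cx3cr1 (ENSMUSG00000052336, chromosome 9, 119901616 to 120069879, minus strand), the receptor for the membrane-bound chemokine fractalkine, was lower in KO. It was at 12.1 FPKM in WT (interval 10.6 to 13.6) and 2.99 FPKM in KO (interval 2.39 to 3.71). The WT value was 4.03 times the KO value (95% interval 3.13 to 5.19, on an estimated 265 and 84 fragments), and the change was -1.71. Of the other genes at a mean of 5 to 10 FPKM, 29.9% had a change as large in either direction.

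Among the CXC receptors, Cxcr4 differed between the libraries by less than its counting error. Cxcr4 (ENSMUSG00000045382, chromosome 1, 128588199 to 128592293, minus strand) was at 426 FPKM in WT (interval 411 to 440) and 424 FPKM in KO (interval 411 to 436). The KO value was 0.995 times the WT value (95% interval 0.951 to 1.04, on an estimated 3382 and 4280 fragments). It was the 218th gene by level in WT and the 212th in KO. At a mean of 100 to 1000 FPKM the median gene differed 1.24-fold between the libraries, and 97.7% of the other genes there had a change as large as that of Cxcr4. Scaling both libraries to the same FPKM sum turned its change from -0.01 to 0.04.

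Cxcr2 (ENSMUSG00000026180, chromosome 1, 74153989 to 74161246, plus strand), which binds CXCL1 and CXCL2, was at 5.83 FPKM in WT (interval 4.68 to 7.16) and 7.96 FPKM in KO (interval 6.74 to 9.28). These intervals overlapped, the KO value was 1.37 times the WT value (95% interval 1.04 to 1.79), and 77.2% of the other genes at 5 to 10 FPKM had a change as large. Of the 50-mers in its transcripts 6.68% occur in another gene.

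Ccrl2 (ENSMUSG00000043953, chromosome 9, 111054486 to 111057519, minus strand) was at 189 FPKM in WT (interval 181 to 197) and 125 FPKM in KO (interval 120 to 131). The WT value was 1.5 times the KO value (95% interval 1.41 to 1.6, on an estimated 2064 and 1745 fragments). The change of -0.58 was not called, and 22.4% of the other genes at 100 to 1000 FPKM had a change as large in either direction.

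Ccr7 (ENSMUSG00000037944, chromosome 11, 99144196 to 99155077, minus strand) was at 0.529 FPKM in WT, on an estimated 6 fragments, and was listed at 0 in KO. The limit that 3 fragments allow was 0.203 FPKM in KO. The WT value lay above this limit, but it rests on few fragments and on a value listed at 0, and no fold is given.

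HIF-1 binds DNA at the core letters ACGTG or GCGTG. These letters were searched on both strands in RefSeq promoter windows (GRCm38.p6, 250 bases before to 50 after each annotated start), which matched 7 of the 8 receptors. They occurred in 4 of these 7 (Cxcr4, Ccrl2, Ccr1 and Cx3cr1). Counted by window, since Ccrl2 has 3, they occurred in 6 of 9 windows of the receptors and in 43.8% of all 32851 windows. The windows of Ccrl2 overlap, so the count by window takes some of the same letters more than once. In Cx3cr1 they lay after the start. The 90 bases that end 11 bases before the start are shown for the others, each from its most upstream annotated start and on the strand of the gene, because Hif-1α was the gene deleted; capitals mark the letters, which on the opposite strand read CACGT or CACGC. A match describes the sequence and is not a measured site, and no match says only that the letters are not in this window.
Cxcr4, chr1:128592310-128592399, minus strand: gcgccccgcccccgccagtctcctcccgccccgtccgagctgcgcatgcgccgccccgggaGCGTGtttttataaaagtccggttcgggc
Ccrl2, chr9:111057529-111057618, minus strand: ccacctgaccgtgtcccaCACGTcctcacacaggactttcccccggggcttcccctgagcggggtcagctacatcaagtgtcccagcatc
Ccr1, chr9:123968703-123968792, minus strand: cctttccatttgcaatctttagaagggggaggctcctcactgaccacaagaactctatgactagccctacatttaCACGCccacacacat
Ccrl2 has 3 annotated starts, and the windows of the other two held CACGT and GCGTG at places outside the piece shown. In the pieces shown the letters began at position -39 from the start in Cxcr4, at -82 in Ccrl2 and at -25 in Ccr1. These receptors did not share a change, with Cxcr4 within counting error, Ccrl2 lower by 1.5-fold in KO and Ccr1 higher by 3.3-fold. Ccr2, Ccr3 and Cxcr2 had no such letters in their windows.

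The ligands of the receptors were examined next, as message in the same libraries. Bulk RNA does not show which cells made this message. Of 19 ligand genes 16 were compared, with 1 called higher and 3 called lower in KO and a median change of 0.01, where 27.3% of all genes compared were called in either direction. Many ligands lay above 100 FPKM, and at 100 to 1000 FPKM only 1.99% of genes were called. Of those called lower, Rarres2 and Ccl11 reached 1 FPKM only in WT, which fixed their direction. All 3 listed ligands of Ccr2 were above the receptor in both libraries, and so were those of Ccr1 except Ccl5 in KO. Of the 5 listed ligands of Cxcr2, Cxcl1, Cxcl2 and Cxcl3 were above the receptor, whereas Ppbp (5.16 and 1.57 FPKM) and Cxcl5 (0 and 0.086 FPKM) were below it. Cxcl2, a neutrophil attractant bound by CXCR2, was at 4416 FPKM in WT versus 5549 in KO, and Cxcl1 was at 1269 and 1271 FPKM. Ccl2, the ligand of CCR2, was at 726 FPKM in WT versus 1085 in KO and was within 3-fold, as was Ccr2.

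For Ccr1, the ligands Ccl6 (1780 FPKM in WT versus 2532 in KO), Ccl3 (1221 and 1833) and Ccl9 (425 and 585) were 1.38- to 1.5-fold higher in KO and were not called. Ccl5, which binds CCR1 and CCR3, was called lower, at 106 FPKM in WT versus 24.7 in KO. Ccl7, which CCR1, CCR2 and CCR3 bind, was at 578 and 429 FPKM, and Ccl12 was at 141 and 144 FPKM. For Ccr3, the eotaxin Ccl24 was at 195 FPKM in WT versus 207 in KO, and Ccl11 was at 5.20 FPKM in WT and listed at 0 in KO. Cxcl3 was at 42.8 and 16.6 FPKM, 2.57-fold lower in KO and not called.

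Where a single ligand was listed, for Cxcr4, Ccrl2 and Cx3cr1, the receptor was above its ligand in both libraries. Cxcl12, the CXCR4 ligand, was called higher, at 3.94 FPKM in WT versus 18.2 in KO. Rarres2, which encodes chemerin, was at 23.8 FPKM in WT and listed at 0 in KO. Cmklr1, the signalling chemerin receptor, was at 143 FPKM in WT versus 167 in KO, near the level of Ccrl2. Cx3cl1, which encodes fractalkine, was at 3.13 FPKM in WT versus 0.467 in KO. Ccl19, a CCR7 ligand, was listed at 0 in both libraries.

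**Figure D3:**
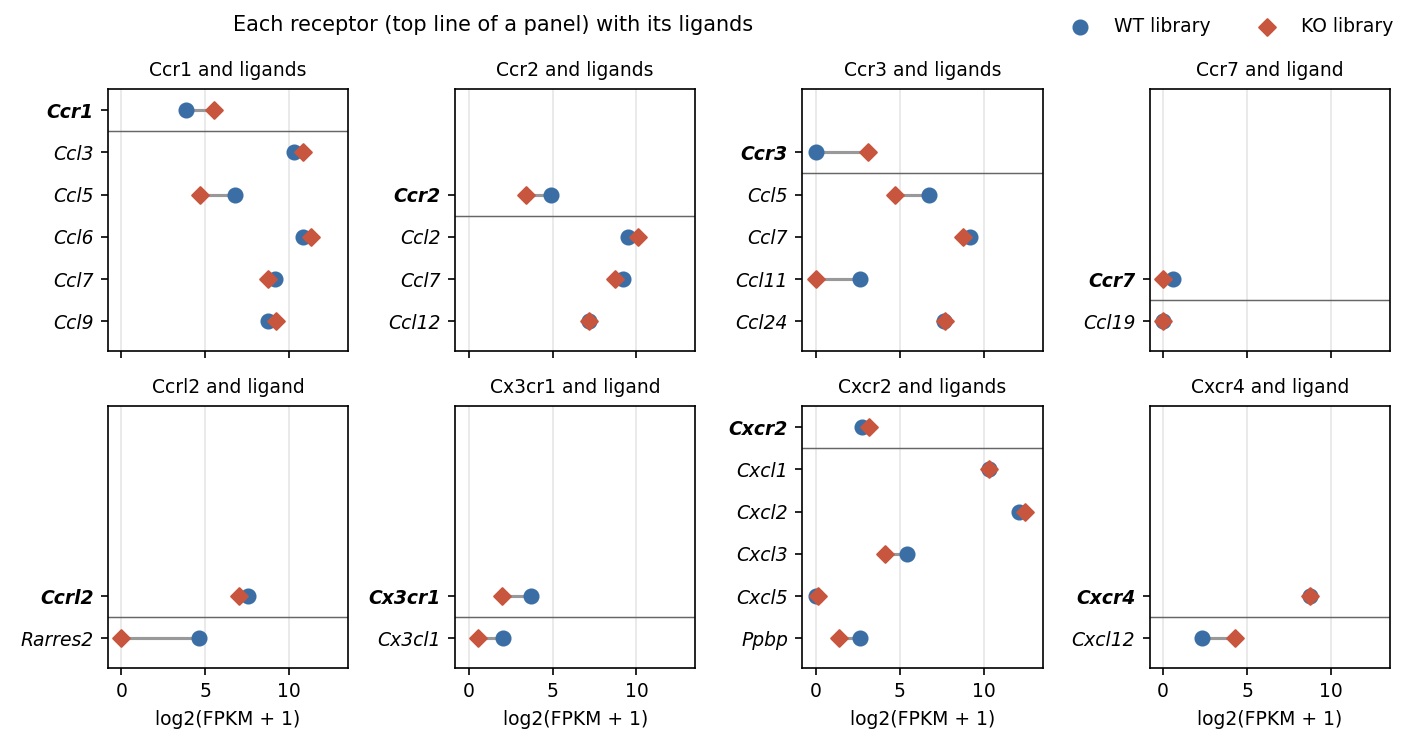
Level of each receptor (top line of a panel) and of its listed ligands in the WT library (blue circles) and the KO library (red diamonds), as log2(FPKM + 1), with 1 library per genotype and no error bar. Cxcl2 is the highest ligand, at 4416 (WT) to 5549 (KO) FPKM, and Cxcl12 is the only ligand called higher in KO.

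Of 16 further chemokine receptor genes 10 were listed at 0 in both libraries. Ccr8 was listed at 0 in WT but found at 6.29 FPKM in KO, and Ackr3, an atypical CXCL12 receptor, was at 2.04 FPKM in WT and listed at 0 in KO.

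The signalling genes that act below the receptors were compared as a further list. Of 37 symbols 33 genes were compared, with 0 called higher and 1 called lower in KO and a median change of -0.22, again beside 27.3% of all genes. Many of these genes had means of 20 to 50 or 100 to 1000 FPKM. There, only 11.7% and 1.99% of genes were called, so few calls do not set this list apart. Gnai2, the main inhibitory G protein subunit of leukocytes, was at 465 FPKM in WT versus 342 in KO, and Gnai3 was at 14.9 and 32.5 FPKM. Arrb2, a β-arrestin that takes receptors off the surface, was at 246 and 253 FPKM. Of the receptor kinases, Grk2 was at 57.0 and 70.2 FPKM, Grk6 at 44.0 and 16.5 FPKM, and Grk5 at 20.5 and 6.28 FPKM. Rgs18, which speeds the shut-off of G proteins, was the gene called lower, at 18.8 FPKM in WT versus 3.24 in KO. Rgs1 was at 128 and 125 FPKM, and Rgs10 at 325 and 165 FPKM. All 15 genes of the PI3Kγ, phospholipase, Rac and kinase list, including Pik3r5 (93.7 and 124 FPKM), Dock2 (55.4 and 40.6 FPKM) and Rac2 (104 and 89.5 FPKM), were within 3-fold.

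Markers of other cells that carry these receptors were set beside them. Of 12 neutrophil markers 11 were found and 7 were compared. All 7 had higher values in KO, 4 of them past 3-fold, and the list summed to 154 FPKM in WT versus 525 in KO. Retnlg (0.385 and 2.46 FPKM), Lcn2, Ngp and Mpo reached 1 FPKM, the level needed for comparison, only in KO, which fixed their direction. S100a8, S100a9 and Csf3r reached it in both libraries. S100a8 and S100a9 made up most of the sum in both libraries. S100a8 encodes MRP8, whose reported expression, per the paper, includes monocytes as well as neutrophils. S100a8 was at 73.3 and 182 FPKM, S100a9 at 63.4 and 301 FPKM, and Csf3r at 15.5 and 24.1 FPKM, and of the granule genes Lcn2 was at 0.96 and 9.79 FPKM. Ngp and Mpo, also granule genes, were listed at 0 in WT and read 2.61 and 2.29 FPKM in KO, while Camp, Ltf, Elane and Mmp8 were listed at 0 in both. Of all genes compared 13.6% were called higher, and at a mean of 1 to 5 FPKM, the range of the called Ngp and Mpo, 54.1% were called in either direction. This share was 32.4% at 5 to 10 FPKM, the range of the called Lcn2, and 1.99% at 100 to 1000, that of the called S100a9. Cxcr2 and Ccr1 had higher values in KO beside these markers, whose part in them was not tested.

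Of 7 eosinophil markers 6 were found. The defining genes Prg2, Epx, Il5ra, Siglecf and Ear1 were listed at 0 in both libraries, also in KO, where Ccr3 was at 7.45 FPKM. Alox15, which some macrophages also express, was the single one above 0, at 6.50 FPKM in WT versus 25.7 in KO.

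The 8 monocyte markers summed to 824 FPKM in WT versus 631 in KO, and of these 1 was called higher and 2 lower, beside 27.3% of all genes in either direction. The called genes had means of 1 to 10 FPKM, where 54.1% (1 to 5) and 32.4% (5 to 10) of genes were called. Nr4a1 (608 and 489 FPKM) and Fn1 (198 and 117 FPKM), which other cells also express and which were within 3-fold, made up most of both sums. Ly6c2, which defines inflammatory monocytes, was at 9.39 FPKM in WT and listed at 0 in KO, as was Chil3 from 2.10 FPKM. Ly6c2 and Chil3, the genes called lower, reached 1 FPKM only in WT, which fixed their direction. Plac8 went the other way, at 1.58 FPKM in WT versus 17.0 in KO. The lower Ccr2 and Cx3cr1 values in KO stood beside this mixed list, and its part in them was not tested. The 8 migratory dendritic cell markers summed to 31.9 and 35.1 FPKM. Of these 5 were compared, with 1 change above 0, 4 below and a median of -1.14, and all but Il4i1 reached 1 FPKM in only 1 library. Ccl22 was called lower (2.62 and 0.0777 FPKM) and Zbtb46 called higher (listed at 0 in WT but found at 9.45 FPKM in KO), while Socs2 was listed at 0 in both. Il4i1 made up most of that sum, at 24.9 FPKM in KO.

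**Figure D4:**
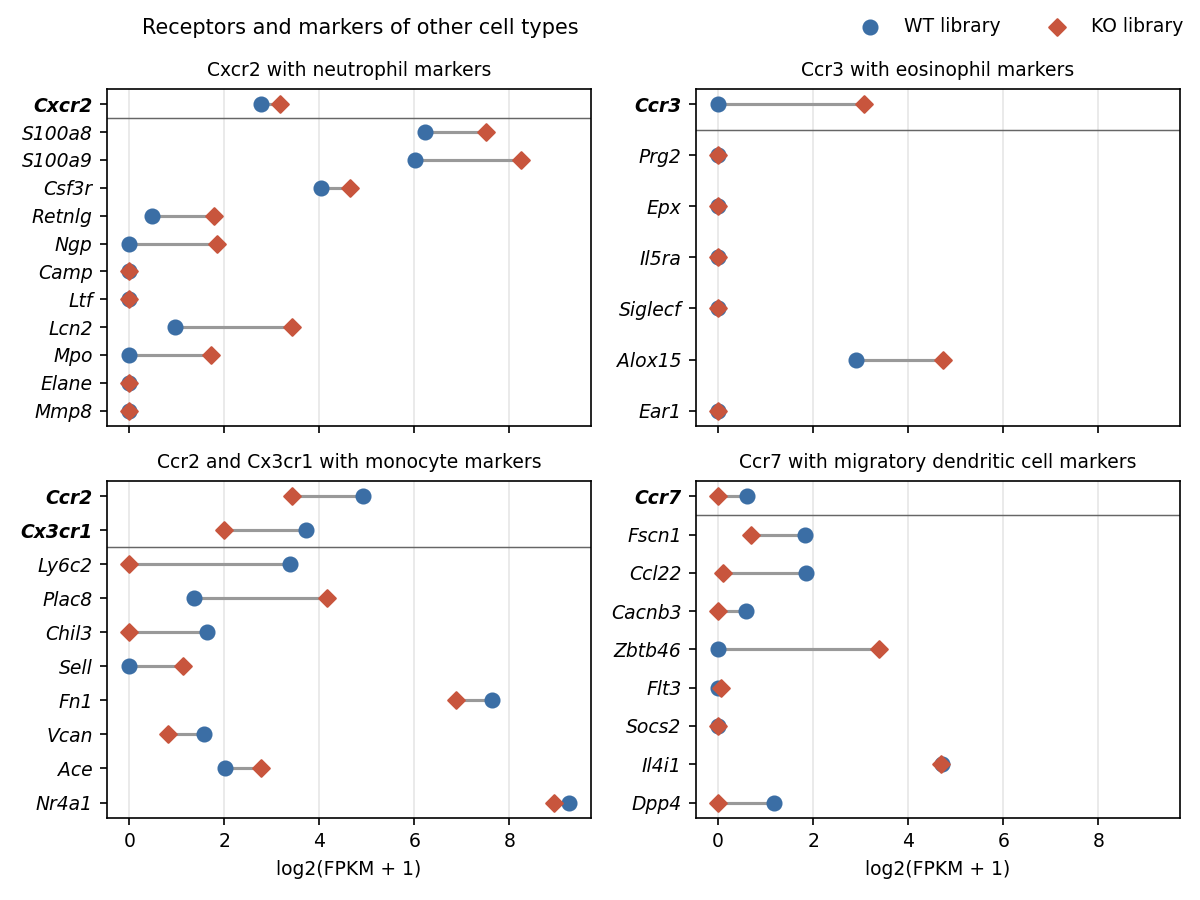
Levels of Cxcr2, Ccr3, Ccr2, Cx3cr1 and Ccr7 (bold, above the line of each panel) and of marker genes of the cell types known to carry them, in the WT library (blue circles) and the KO library (red diamonds), as log2(FPKM + 1), with 1 library per genotype and no error bar. Neutrophil markers above 0 are all to the right in KO, and 5 of the 6 eosinophil markers are at 0 in both libraries.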

How the data were processed

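Poly(A) RNA of sorted ATM was sequenced, with 1 library per genotype. The authors deposited a table of FPKM per gene and library. The submitters' processing notes name CASAVA 1.8.2, TopHat2 2.0.9, Cufflinks 2.2.1 and the build mm9. FPKM are not counts, so no count model was used. Annotation, read length and filters are not given in the sources used here. The mutant column was read as KO, the only label that is not WT. Of 20749 rows 401 full repeats were dropped and 18 differing rows of an identifier were summed. Symbols, lengths (median coding transcript) and coordinates came from GENCODE M21 (GRCm38), not from mm9, and 98.5% of identifiers had a symbol.

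Changes were computed on log2(FPKM + 1) with Python 3.11.15, numpy 2.4.6, pandas 2.3.3 and scipy 1.17.1. One fragment was taken as the smallest recurring FPKM x kb, 0.170 in WT (19 genes) and 0.134 in KO (20 genes), in genes with 1 annotated transcript. The procedures were tested on simulated data that held counting error only, not the scatter between these libraries. That test does not show how often a call is wrong here. Besides the receptors, list genes were named at 10 FPKM or more or where they define a cell type or ligand. Ccr8 and Ackr3, which are below this, were named after their values were seen, as genes past 3-fold. Members and lists were chosen with earlier results of these data known. Some genes of the wider receptor family are not reported here.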

Additional observations from a re-analysis of the deposited data

How the results depend on the processing

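No paired analysis was possible because there was a single library of each genotype. Over 10 other settings (pseudocount, filter, scaling, threshold and repeated rows) the number of receptors past the threshold lay between 2 and 4. It was 2 where both libraries had to reach 1 FPKM, or the mean 5 FPKM, which leave out Ccr3, where 11.5% and 18.1% of all genes were past it. It was 4 with a 2-fold threshold (45.6% of all genes) or a pseudocount of 0.01 (37.0%), which add Ccr2, and 3 on the plain FPKM ratio (24.5%), which adds Ccr2 and leaves out Ccr3. In the other settings it was 3, beside 13.8% to 36.4% of all genes. The median receptor change lay between -0.30 and 0.04. Of 55 recomputed receptor changes, 53 moved by less than the reach of their counting interval to one side (1.5-fold where no interval could be had), and 0 of the called ones changed sign. The other 2 were those of Ccr3, at 6.24 and 9.54 with pseudocounts of 0.1 and 0.01, since it was listed at 0 in WT. Ccr1 lay between 1.65 and 1.72, Cx3cr1 between -2.01 and -1.67, and Ccr2 between -1.59 and -1.46. The median gene differed 1.98-fold between the libraries at a mean of 5 to 10 FPKM and 1.24-fold at 100 to 1000, and with 1 library per genotype this scatter cannot be told apart from a difference of genotype.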

Other observations

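The T cell genes Cd3d, Cd3e, Cd3g and Lck were listed at 0 in both libraries, and the 6 T cell markers found summed to 11.2 FPKM in WT and 14.0 FPKM in KO, all of it from Cd4 and Il7r. The 5 B cell markers summed to 2.75 FPKM in WT and 6.46 FPKM in KO, and the 2 compared went in opposite directions. Cd79b was past 3-fold, listed at 0 in WT but found at 5.52 FPKM in KO. Cd79a was lower in KO and within 3-fold, at 2.5 FPKM in WT versus 0.222 in KO. Cd79b reached 1 FPKM only in KO and Cd79a only in WT, which fixed both directions. At a mean of 1 to 5 FPKM, the range of both, 54.1% of genes were called in either direction. Of the 5 mast cell and basophil markers 4 were listed at 0 in both libraries, and Kit was at 1.03 FPKM in KO. Apoe, by the labels disrupted in all mice, read 94.3 FPKM in WT versus 117 in KO. These values cover the whole gene and do not check the disruption.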
